A study of Mus musculus with 29 samples.

Results

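Lung RNA of Klf15-/- mice given dexamethasone and taken at 8 h was compared with lung RNA of wild-type mice given the same drug for the same time. The comparison was chosen by the array labels alone and holds 7 of the 29 arrays of the series: 4 Klf15-/- arrays, numbered 61 to 64, and 3 wild-type arrays, numbered 54 to 56. All mice were C57BL/6, 6 to 8 weeks old, and all 7 received dexamethasone at 2.5 mg/kg, so the drug is common to both groups. The other arrays come from Klf15-/- and wild-type lung under dexamethasone at 4 h (4 and 4 arrays) and under saline at 8 h (4 and 3) and 4 h (3 and 4). The labels give whole lung as the tissue and name no cell type, so fewer cells of a type and less RNA per cell cannot be told apart. They do not state which part of Klf15 was deleted, and they describe the samples of a group as biological replicates.

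Klf15 is a zinc-finger transcription factor of the Krüppel-like family. Glucocorticoids bind the glucocorticoid receptor, which switches on Klf15 among its direct target genes, and the induced factor can then act on further genes beside the receptor. In liver and muscle Klf15 is known for driving enzymes that break down amino acids. Dexamethasone is a synthetic glucocorticoid with wide anti-inflammatory use in lung disease.

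Expression was read as probe brightness on 1-colour arrays. Values below are log2 signal minus the 75th percentile of the same array, so 0 is the brightness of that percentile and levels of different genes are not set against each other. The 75th-percentile signal was 1811 to 2343 on Klf15-/- arrays and 2123 to 2331 on wild-type arrays, and 76.58 to 81.89% and 77.34 to 85.41% of probes were well above background in the same order. All 9 lung markers checked, among them surfactant genes, Scgb1a1 of club cells and Cldn5 of endothelium, were well above background on 7 of 7 arrays. No slide held arrays of both groups, so no value within a slide can be given. Slides could be entered as a block only through the other 22 arrays.

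Klf15 itself was low on every array of the labelled knockout. It read 0.46, 1.18, 0.86 and 0.62 on the Klf15-/- arrays, against 3.91, 3.40 and 3.76 on the wild-type arrays. The groups did not overlap, and the log2 difference was -2.91 (SE 0.225, adjusted p = 8.05e-09, limma). A second probe of the gene gave -2.36. Klf15 stayed well above background in the knockout, and the labels do not place its probes inside or outside the deleted part. Nr3c1, which encodes the glucocorticoid receptor, read 2.16 ± 0.12 in Klf15-/- lung and 2.36 ± 0.06 in wild-type lung (SD, n = 4 and 3). Its difference of -0.20 (SE 0.0914) did not pass the test, with an adjusted p of 0.18.

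Across 15350 genes tested, 806 (5.25%) differed at an adjusted p under 0.05, the threshold for a called gene throughout. Of these, 490 (3.19%) were higher and 316 (2.06%) lower in Klf15-/- lung. The median size of a called difference was 0.504 on the log2 scale, and the median over all genes was 0.0383. At least 2-fold, 37 called genes were higher and 41 lower. The arrays of the groups did not overlap for 3327 genes (21.7%). The number of calls rested on the spread shared by all 29 arrays: a fit of the 7 arrays alone called 50 genes, 48 of them among the 806. With slides as a fixed block 405 genes were called, of which 279 were among the 806, and the share higher was 42.7% in place of 60.8%. Without wild-type array 55 the number was 312 and without Klf15-/- array 62 it was 1222.

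**Figure D1:**
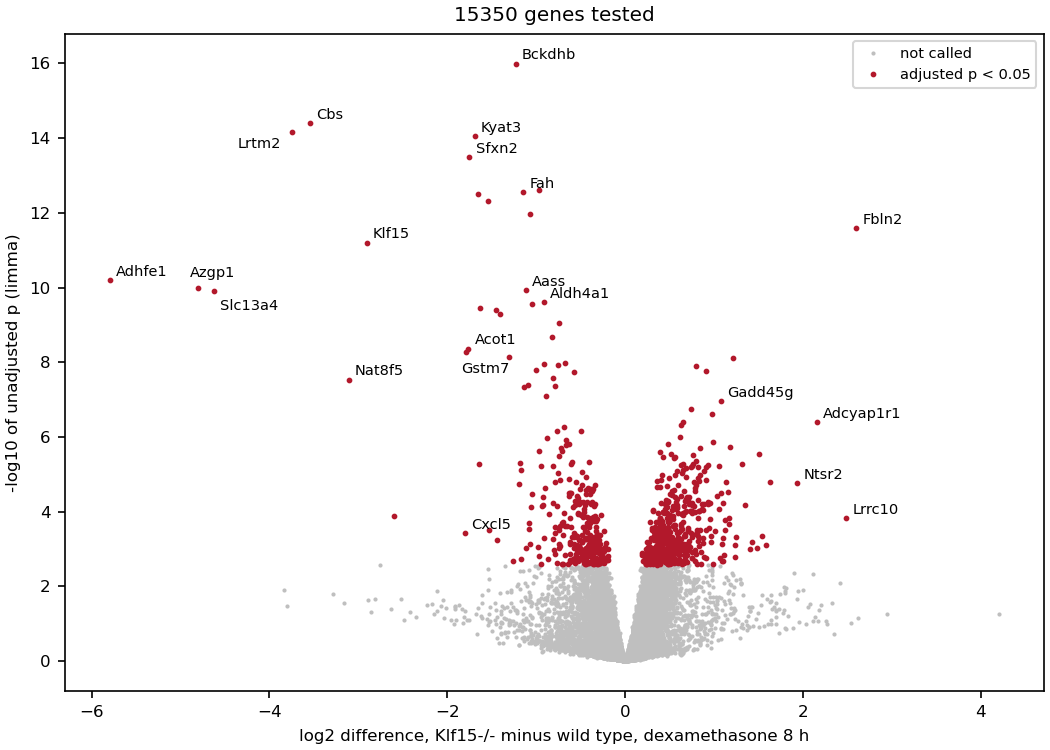
Each point is 1 of 15350 genes, with the log2 difference of Klf15-/- minus wild-type lung at 8 h of dexamethasone on the x axis and -log10 of the unadjusted limma p on the y axis. The point farthest to the left is Adhfe1, plotted at a measured -5.79 although its probe was not well above background on any Klf15-/- array, and Fbln2 at 2.60 is the called rise farthest from 0.

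The genes that fell most in Klf15-/- lung included enzymes and transporters of small molecules. Adhfe1, a mitochondrial hydroxyacid-oxoacid transhydrogenase, read -9.37, -9.43, -7.89 and -8.70 on the Klf15-/- arrays and -3.11, -2.98 and -3.06 on the wild-type arrays. It was not well above background on any Klf15-/- array, so the fall is given by an approximate lower bound, 21.2-fold (adjusted p = 7.44e-08). A second, dimmer probe of Adhfe1 gave -1.12 and did not pass. Azgp1, a secreted zinc-binding glycoprotein linked to lipid mobilisation, read -4.24, -3.24, -4.51 and -4.75 in Klf15-/- lung and 0.74, 0.48 and 0.64 in wild-type lung. Its difference was -4.80 (SE 0.428, adjusted p = 1.12e-07). Slc13a4, a sodium-sulfate cotransporter, read -3.42, -4.86, -4.63 and -4.78 against 0.60, 0.06 and -0.05, a difference of -4.63 (SE 0.406). In all 3 genes every Klf15-/- array lay below every wild-type array, which was a condition for a place among the largest falls. Of all genes 21.7% had groups that did not overlap.

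Lrtm2, a leucine-rich repeat membrane protein, read -2.86, -2.52, -3.12 and -2.75 in Klf15-/- lung and 1.23, 0.79 and 0.79 in wild-type lung (difference -3.75, SE 0.209). Nat8f5, of the N-acetyltransferase 8 family, was not well above background in Klf15-/- lung, and its fall has an approximate lower bound of 7.08-fold. The Nat8 genes are near-identical copies, so its probe may read more than 1 of them. Gstm7, a glutathione transferase, differed by -1.79, and Gstm6 of the same family lay on the other side at 1.43. Acot1, an acyl-CoA thioesterase, differed by -1.76, the mitochondrial carrier Sfxn2 by -1.75 and Aldh1l1, a folate enzyme, by -1.63. Cxcl5, a neutrophil-attracting chemokine, differed by -1.80 but was well above background on only 1 Klf15-/- array. Of the 15 largest falls, 13 stayed called under every alternative setting run for them. These were 22 settings, or 21 for Nat8f5 and Slc13a4, which a filter for probes well above background on all arrays removed. The exceptions were Adhfe1, lost with its dimmer probe, and Cxcl5, lost without wild-type array 55 or 56, without Klf15-/- array 61 and under 4 other settings.

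**Figure D2:**
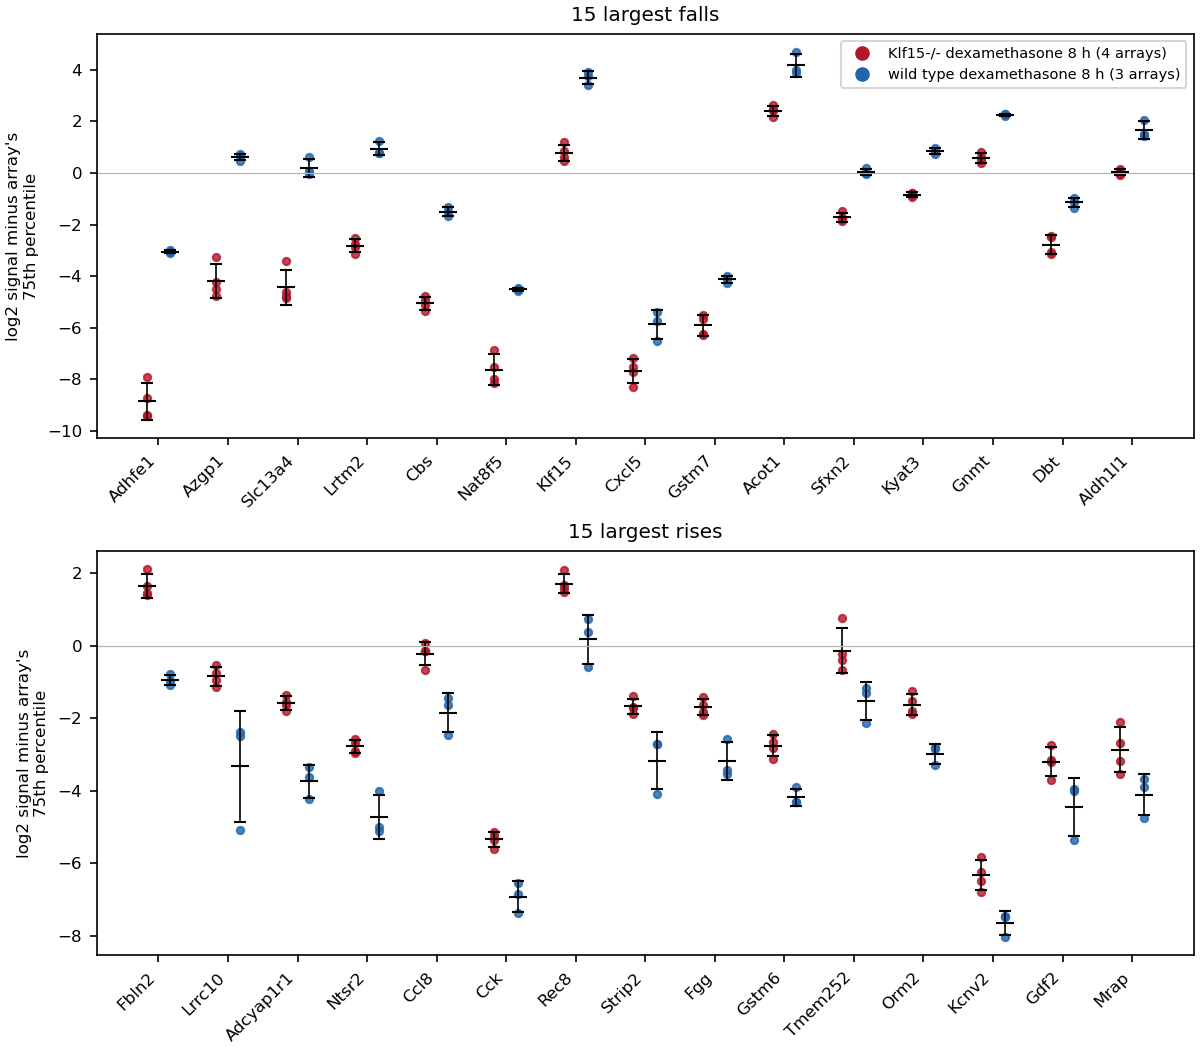
Points are single arrays, Klf15-/- to the left and wild type to the right of each gene, with the mean and SD as bars; the y axis is log2 signal minus the 75th percentile of the array. No gene shown has overlapping groups, which was a condition for inclusion, and the wild-type points of Lrrc10 range from -5.09 to -2.39.

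The largest rises were smaller and less stable. Fbln2, a matrix glycoprotein of basement membranes and elastic fibres, read 2.12, 1.65, 1.39 and 1.46 on the Klf15-/- arrays and -0.78, -1.07 and -0.98 on the wild-type arrays. The difference was 2.60 (SE 0.193, adjusted p = 3.65e-09), and Fbln2 was the only one of the 15 largest rises that stayed called under all 22 settings. Adcyap1r1, a receptor of the neuropeptide PACAP, read -1.62, -1.35, -1.79 and -1.54 against -3.63, -4.24 and -3.34, a rise of 2.16 (adjusted p = 0.00014). Ntsr2, a neurotensin receptor, rose by 1.94 and Ccl8, a monocyte-attracting chemokine, by 1.63. Orm2 and Fgg, which encode acute-phase plasma proteins, rose by 1.35 and 1.49. With slides as a fixed block, 7 of the 15 lost the call, and with their dimmest probes Adcyap1r1, Ntsr2 and Strip2 did. In the fit of the 7 arrays alone 13 of the 15 rises lost it, against 1 of the 15 falls.

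Lrrc10, known as a cardiac muscle protein, read -1.14, -0.52, -0.76 and -0.93 in Klf15-/- lung and -2.39, -5.09 and -2.49 in wild-type lung. The rise of 2.49 (adjusted p = 0.00927) was not called without wild-type array 55, the lowest. Beside it, the 15 heart muscle genes measured had a median difference of 1.64 with none called. By limma 4 of them had an unadjusted p under 0.05, as did 3751 of all 15350 genes. The mean level of the heart muscle genes was -0.36 to 0.648 on Klf15-/- arrays and -2.79 to -0.278 on wild-type arrays. The 13 adipocyte genes had a median of 0.79 with 1 called, Fabp4 (7.69%, against 5.25% of all genes called). Their mean level was -0.893 to 0.612 on Klf15-/- arrays and -1.39 to -0.607 on wild-type arrays. The call of Fabp4 ended without any one of arrays 54, 55, 56, 61, 62 or 63. It also ended after quantile normalization and with slides as a fixed block. The part of heart or fat tissue in these rises was not tested. Calls among the 15 rises that ended without a single array were those of Lrrc10 (array 55), Cck (54, 55, 61 or 64), Fgg (54, 55, 61 or 63), Gstm6 (54, 55 or 61), Rec8 (54), Gdf2 (54 or 61), Mrap (54, 55, 61, 62 or 63) and Tmem252 (54, 55, 56, 61 or 64).

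Promoters of the 3 largest falls and 2 largest rises with an entry in the sequence table are shown because these genes moved farthest. Adhfe1 is not among them. Each runs from 250 bases before to 50 bases after the first listed start, 5′ to 3′ on the gene's strand (RefSeq, GRCm38.p6). Capitals mark CACCC, a box bound by Krüppel-like factors, and the GC box GGGCGG, searched on both strands.
Azgp1 (chr5:137981271-137981570, plus strand): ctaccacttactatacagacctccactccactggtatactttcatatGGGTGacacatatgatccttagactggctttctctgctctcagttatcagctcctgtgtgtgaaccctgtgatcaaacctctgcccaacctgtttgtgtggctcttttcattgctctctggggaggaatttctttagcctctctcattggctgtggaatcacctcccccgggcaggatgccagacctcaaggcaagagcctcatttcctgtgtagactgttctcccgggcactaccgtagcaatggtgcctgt
Slc13a4 (chr6:35308077-35308376, minus strand): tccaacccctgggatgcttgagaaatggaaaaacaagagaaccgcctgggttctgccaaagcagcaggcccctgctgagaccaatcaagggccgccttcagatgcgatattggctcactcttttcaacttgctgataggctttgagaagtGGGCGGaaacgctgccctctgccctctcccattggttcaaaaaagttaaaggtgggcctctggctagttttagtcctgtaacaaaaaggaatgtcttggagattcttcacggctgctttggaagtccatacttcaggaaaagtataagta
Lrtm2 (chr6:119330717-119331016, minus strand): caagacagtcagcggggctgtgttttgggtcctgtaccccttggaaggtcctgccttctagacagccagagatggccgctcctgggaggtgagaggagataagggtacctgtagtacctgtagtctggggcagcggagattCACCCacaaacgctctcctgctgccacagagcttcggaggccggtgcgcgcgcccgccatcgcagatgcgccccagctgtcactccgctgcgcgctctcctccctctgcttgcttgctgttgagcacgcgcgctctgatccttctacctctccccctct
Fbln2 (chr6:91212514-91212813, plus strand): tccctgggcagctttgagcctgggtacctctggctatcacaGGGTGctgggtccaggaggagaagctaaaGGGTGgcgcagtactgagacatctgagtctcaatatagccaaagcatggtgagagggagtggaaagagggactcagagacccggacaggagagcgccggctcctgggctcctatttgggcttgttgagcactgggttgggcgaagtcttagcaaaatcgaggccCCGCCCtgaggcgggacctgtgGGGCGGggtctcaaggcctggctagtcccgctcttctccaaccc
Lrrc10 (chr10:117045091-117045390, plus strand): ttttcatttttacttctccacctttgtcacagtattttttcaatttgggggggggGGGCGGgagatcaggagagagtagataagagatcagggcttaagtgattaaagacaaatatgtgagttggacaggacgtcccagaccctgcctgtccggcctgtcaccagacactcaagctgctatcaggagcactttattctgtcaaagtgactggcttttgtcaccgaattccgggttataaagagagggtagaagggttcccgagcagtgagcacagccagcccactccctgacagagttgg
The motif CACCC stood in 68.4% of 250 promoters of genes called lower and in 71.0% of 404 of genes called higher, against 61.8% of the 12246 tested genes with an entry. The GC box stood in 65.2% and 58.7%, against 56.5%. For the 33 genes called at least 2-fold lower the shares were 75.8% for the first motif and 51.5% for the second, and for the 29 called at least 2-fold higher they were 55.2% and 34.5%. AGAACA, 1 arm of the glucocorticoid receptor's palindrome, searched on both strands, stood in 14.4% of promoters of genes called lower and 16.1% of those called higher, against 14.0% of all tested. Among the genes called at least 2-fold it stood in 10 of the 33 promoters of falls (30.3%) and 3 of the 29 of rises (10.3%). The median GC content was 61.3% for genes called lower and 60.7% for those called higher, against 59% over all tested. These matches describe letters in a window and show no binding.

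Of 25 enzymes of branched-chain amino acid breakdown measured, 8 fell in Klf15-/- lung and none rose, against 2.06% of all genes falling. The list's median was -0.241, and 5 members lay above 0. Bckdhb, a subunit of the dehydrogenase that commits branched-chain keto acids to breakdown, read 0.12, 0.16, 0.06 and 0.08 in Klf15-/- lung and 1.45, 1.26 and 1.30 in wild-type lung. The difference of -1.23 (SE 0.0563) had the lowest adjusted p of all genes, 1.54e-12. Dbt, the transacylase core of the same complex, read -3.06, -2.49, -2.45 and -3.13 against -0.97, -1.11 and -1.34 and fell by 1.64. Aldh6a1, which acts late in valine breakdown, read 2.29, 2.61, 2.33 and 2.58 against 4.18, 3.89 and 3.91 and fell by 1.54. Groups did not overlap for these genes. Ivd of leucine breakdown fell by 0.75 and Echs1, a hydratase shared with fatty acid oxidation, by 0.58. Ppm1k, Mccc1 and Mccc2, singled out after their values were seen, differed by -0.90, -0.43 and -0.48. With slides as a fixed block 10 of the 25 fell, and the fit of the 7 arrays alone called 3. With the dimmest probe of each gene Ivd, Ppm1k, Mccc1 and Mccc2 were not called, and with the mean of probes Mccc1 and Mccc2 were not. The call of Mccc1 ended without wild-type array 54 or 55, and that of Mccc2 without 55, 56, 63 or 64.

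Among 34 enzymes that break down other amino acids, 14 fell and 2 rose, against 2.06% of all genes falling and 3.19% rising, and the median was -0.221. Cbs, which joins homocysteine to serine in transsulfuration, read -4.78, -4.91, -5.12 and -5.36 in Klf15-/- lung and -1.31, -1.67 and -1.51 in wild-type lung. The fall of 3.55 on the log2 scale (SE 0.192, adjusted p = 2.99e-11) was the farthest of the list. Cth, the next enzyme of that route, read -1.15, -1.04, -1.12 and -1.13 against -0.20, -0.17 and 0.04. Outside the list, Gnmt, which uses the methyl donor S-adenosylmethionine, differed by -1.66 and Kyat3, a kynurenine aminotransferase, by -1.69. Of the late enzymes of tyrosine breakdown, Fah fell by 1.15 and Gstz1 by 0.97.

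Prodh, the first enzyme of proline breakdown, read 1.62, 1.62, 1.82 and 1.94 in Klf15-/- lung and 3.40, 3.07 and 3.15 in wild-type lung (difference -1.46, SE 0.14, adjusted p = 3.1e-07). Aass, the first enzyme of lysine breakdown, read -0.50, -0.28, -0.63 and -0.34 against 0.65, 0.66 and 0.71 (difference -1.11, SE 0.1). Dhtkd1, a later enzyme of the lysine route, differed by -2.60, but its arrays overlapped at -9.12 to -5.20 and -5.54 to -4.38, and the call ended without wild-type array 54. Further members singled out after their values were seen were Aldh4a1 (-0.91), Abat of GABA breakdown (-0.92), Tdo2 of tryptophan breakdown (-1.08), Ass1 (-0.54), Gpt (-0.45), Cdo1 (-0.40) and Oat (-0.37). With slides as a fixed block 14 of the 34 fell, and from the 7 arrays alone 8. Aldh4a1 was not called with its dimmest probe or the mean of its probes. The 2 that rose were Gpt2 (0.48) and Arg2 (0.83). Leaving out single arrays ended the calls of Tdo2 (54, 56 or 64), Ass1 (54), Gpt (54, 55, 56, 62 or 63), Gpt2 (55 or 61) and Arg2 (55, 56 or 61).

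**Figure D3:**
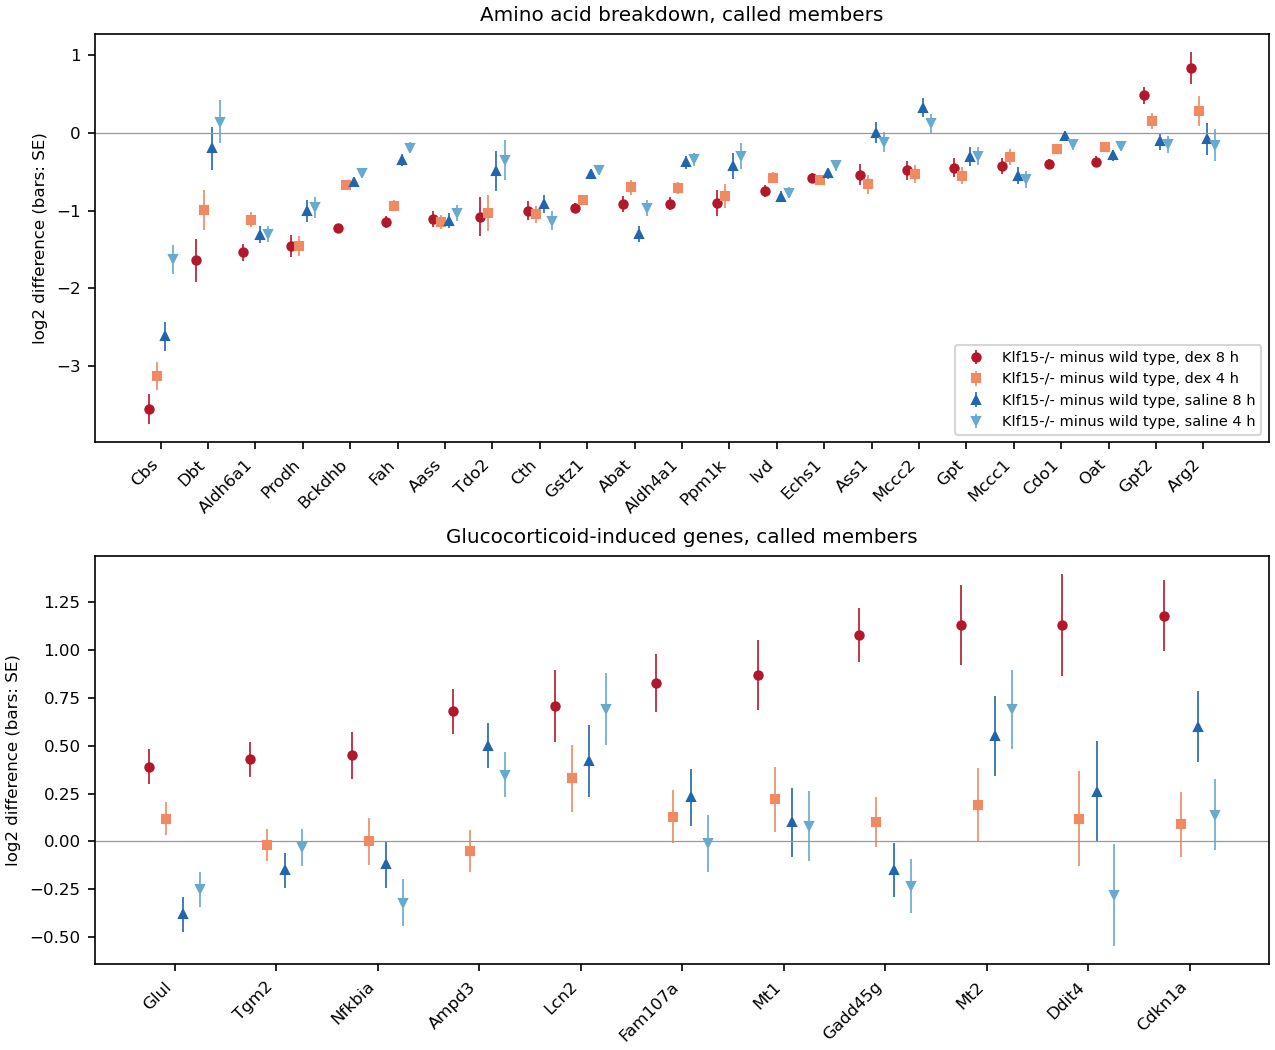
Log2 differences of Klf15-/- minus wild-type lung with SE bars for called members, 1 left out, of the amino acid breakdown lists (upper panel) and the glucocorticoid-induced list (lower panel), in 4 comparisons that share no array. Cbs lies below -1.6 in all 4, and the glucocorticoid-induced genes lie highest in red, at 8 h of dexamethasone.

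Of 31 genes known to be induced by glucocorticoids, 11 rose in Klf15-/- lung at 8 h and none fell, against 3.19% of all genes rising. The median was 0.362, and 25 of the 31 lay above 0. The list's mean level was 3.34 to 3.7 on Klf15-/- arrays and 2.95 to 3.32 on wild-type arrays. Gadd45g, a growth-arrest gene, read 5.27, 5.36, 4.88 and 5.24 in Klf15-/- lung and 4.28, 3.79 and 4.26 in wild-type lung (difference 1.08, SE 0.141, adjusted p = 4.1e-05). Mt2, a metallothionein that binds zinc, read 5.91, 5.51, 5.21 and 5.53 against 4.57, 4.47 and 4.18 (difference 1.13, adjusted p = 0.00226). Cdkn1a, the cell cycle inhibitor p21, rose by 1.18, Fam107a by 0.83 and Ampd3 by 0.68. Mt1, Ddit4, Tgm2, Glul, Lcn2 and Nfkbia, taken after their values were seen, rose by 0.39 to 1.13.

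At 4 h of dexamethasone the same list had no call in either direction by limma, where 0.958% of all genes were called, and its median was 0.0534. Under saline at 8 h 2 of the list rose and 3 fell, with a median of -0.148, where 5.27% of all genes rose and 8.26% fell. Under saline at 4 h 3 rose and 9 fell, with a median of -0.25, where 6.68% of all genes rose and 17% fell. Gadd45g averaged 5.77 in Klf15-/- lung and 5.67 in wild-type lung at 4 h, and 3.27 and 3.42 under saline at 8 h. Mt2 averaged 5.75 and 5.56 at 4 h of dexamethasone, and 3.36 and 2.81 under saline at 8 h. Its difference under saline was 0.55 at 8 h, not called, and 0.69 at 4 h, called. The 2 that rose under saline at 8 h were Cdkn1a (0.60) and Ampd3 (0.50). The difference under dexamethasone minus that under saline at 8 h passed for Gadd45g (1.23). It did not pass for Mt2 (0.58), Cdkn1a (0.57) or Ampd3 (0.18). The change of the genotype difference between 8 and 4 h did not pass for Gadd45g (0.98, adjusted p = 0.0835), Mt2 (0.94, adjusted p = 0.307) or Cdkn1a (1.09, adjusted p = 0.167). Other well-known targets of the receptor, taken after their values were seen, were not called at 8 h. Fkbp5 differed by 1.17, Per1 by 0.25, Tsc22d3 by 0.198 and Dusp1 by -0.105. With slides as a fixed block 5 of the 31 rose, and Mt1, Mt2, Ddit4, Glul, Lcn2 and Nfkbia were not called. After quantile normalization 7 rose, without Tgm2, Glul, Lcn2 and Nfkbia, and the fit of the 7 arrays alone called 0. Ampd3 was not called with its dimmest probe or the mean of its probes. Without wild-type array 55 or Klf15-/- array 61 the count was 7. Single arrays ended the calls of Ddit4 (55 or 61), Tgm2 (54), Glul (55, 56 or 61), Lcn2 (54, 55, 56, 61 or 64) and Nfkbia (55, 56, 61 or 64).

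Among 16 Krüppel-like factors, 4 fell and none rose, where 2.06% of all genes fell and 3.19% rose. Besides the deleted Klf15 itself these were Klf11 at -0.79, Klf10 at -0.69 and Klf12 at -0.61. Klf11 and Klf12 were not called with their dimmest probes. Of 27 genes of fatty acid use, 6 fell and 2 rose, and the median was -0.0377. Without wild-type array 54, 2 fell. Ppara, a receptor that drives fatty acid oxidation, fell by 0.46 and Ehhadh, a peroxisomal oxidation enzyme, by 0.37. Fasn, the fatty acid synthase, read 6.13, 6.00, 6.00 and 6.07 in Klf15-/- lung and 5.69, 5.73 and 5.50 in wild-type lung, a rise of 0.41 that was not called after quantile normalization or without wild-type array 56. Amino acid transporters had 3 rises and 2 falls among 24. Slc38a4, a carrier of neutral amino acids, rose by 0.70 and Slc7a10 fell by 0.66. Of 18 clock genes none rose and 2 fell (11.1%, against 2.06% of all genes falling), among them Arntl by 0.57. The call of Arntl ended without any one of arrays 55, 56, 61, 62, 63 or 64, that of Ppara without 54, and that of Slc7a10 without 55 or 56.

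Some genes of smooth muscle and matrix were higher in Klf15-/- lung. Of 9 smooth muscle genes 4 rose and none fell, against 3.19% of all genes rising, with a median of 0.412. Myh11, the smooth muscle myosin heavy chain, read 2.23, 1.99, 2.06 and 1.97 in Klf15-/- lung and 1.40, 1.34 and 1.40 in wild-type lung (difference 0.69, adjusted p = 0.00187), and was not called with slides as a fixed block. In that fit 0 of the 9 rose, and the count was 1 without wild-type array 55 or 56 and 2 without Klf15-/- array 61, 63 or 64. Of 26 collagen and matrix genes 5 rose, with a median of 0.32, led by Col6a2 at 0.79 and the protease Mmp2 at 1.17. The matrix count was 2 with slides as a fixed block or without wild-type array 56, and 3 without wild-type array 54, without Klf15-/- array 61 or after quantile normalization. On Klf15-/- array 61 Mmp2 read 1.93, against 0.40 to 0.79 on the other 3. Its call ended without wild-type array 54. Of 14 heat shock genes 1 rose and 1 fell. Hspb8, a small heat shock protein of muscle, rose by 0.56, and Hspe1, a mitochondrial co-chaperone, fell by 0.43 and was not called with slides as a fixed block. The heart muscle genes given above had a median difference of 1.64, but none was called and their mean levels overlapped between the groups.

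Calls in the lists of other cell types are given beside the 5.25% of all genes called. T, B and NK cell genes, alveolar type 2 genes and club and ciliated cell genes had none among 20, 15, 14, 11 and 14 measured. Of 9 alveolar type 1 genes 1 rose (11.1%), Pdpn, by 0.63, and the median was 0.0731. Of 16 endothelial genes 2 fell (12.5%) and none rose, against 2.06% of all genes falling, and the median was 0.0826. Kdr, a receptor of vascular endothelial growth factor, read 2.22, 2.63, 2.76 and 2.66 in Klf15-/- lung and 3.34, 3.33 and 3.21 in wild-type lung (difference -0.72, adjusted p = 0.000512). Interferon-stimulated genes had a median of 0.3 with 2 of 27 called (7.41%). Irf7, a master factor of the type I interferon response, rose by 0.82. Of 26 genes of monocytes, macrophages and dendritic cells 2 rose (7.69%), the complement genes C1qb by 0.91 and C1qc by 0.57. The list's median was -0.00194, and 13 of the 26 lay above 0. C1qc was not called without any one of arrays 54, 55, 56, 61 or 64, and C1qb without 54 or 61. The 17 immediate-early genes had a median of -0.278 with none called. By limma 2 of the 17 had an unadjusted p under 0.05, as did 3751 of all 15350 genes.

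**Figure D4:**
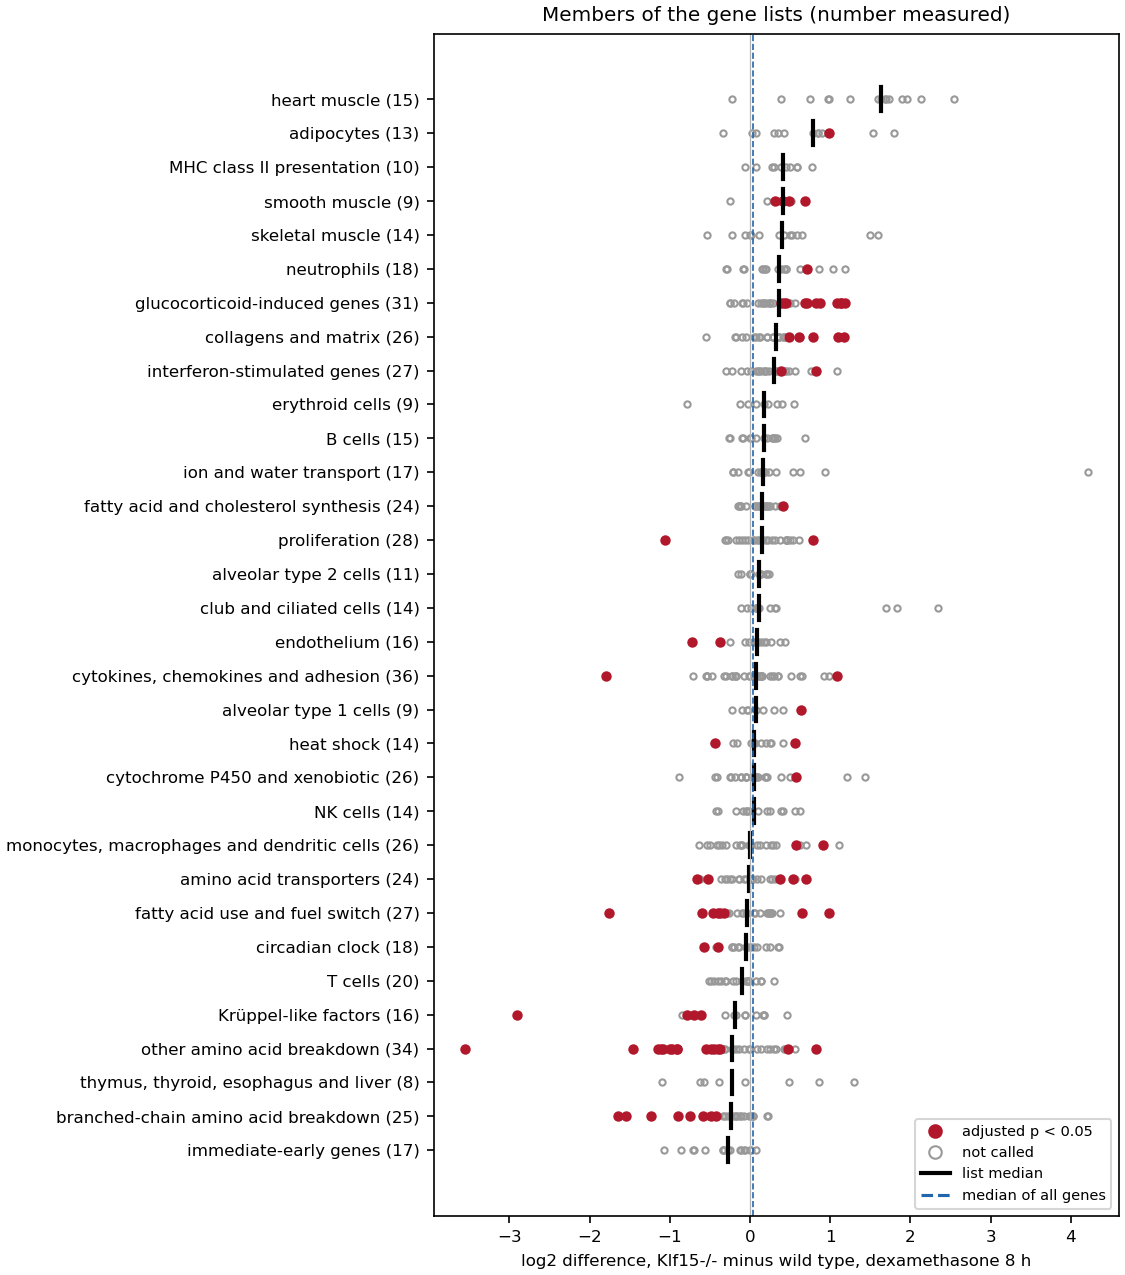
Each point is a measured member of 1 of 32 gene lists, placed by its log2 difference at 8 h of dexamethasone, with called genes filled and the list median as a bar. Amino acid breakdown lists hold filled points on the left, the glucocorticoid-induced, smooth muscle and matrix lists on the right, and the heart muscle list has the highest median, 1.64, with no filled point.

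Around Klf15 on chromosome 6, 14 of 146 genes within 10 Mb were called (9.59%), against 32 of 648 on the rest of the chromosome (4.94%) and 5.25% of all genes. Aldh1l1 and Fbln2, given above, and Nat8f5 are among the 14. The rest were Adamts9 at 0.85, Podxl2 at 0.81, Bola3 and Magi1 at 0.37, Rpn1 at 0.30, Copg1 at 0.23, Pradc1 at -0.27, Gmcl1 at -0.36, Pcyox1 at -0.48, Nat8 at -0.70 and Sfxn5 at -0.94. Of the 14, 7 lost the call when a single array was left out and 8 with slides as a fixed block. Adamts9 and Copg1 changed direction with their dimmest probe. The difference between these shares was not tested.

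The called genes were also read in the other 3 comparisons, which share no array with this one. All take the spread of a gene from the same fit of 29 arrays, so shared calls are in part built in. Of 316 genes lower at 8 h of dexamethasone, 261 (82.6%) were lower at 4 h, where 40.5% of all genes were, and 258 (81.6%) were lower under saline at 8 h, where 66.3% of all genes were. Under saline at 4 h 217 (68.7%) were lower, against 51.5% of all genes. They were called lower in 78 cases (24.7%) at 4 h of dexamethasone (0.664% of all genes were), 110 (34.8%) under saline at 8 h (8.26%) and 91 (28.8%) under saline at 4 h (17% of all genes). Of the 41 genes at least 2-fold lower, 29, 27 and 24 were called lower in those comparisons, and of the 37 at least 2-fold higher, 5, 5 and 5 were called higher. Of 490 genes higher, 398 (81.2%) were higher at 4 h of dexamethasone, against 59.5% of all genes, 245 (50%) were higher under saline at 8 h, against 33.7%, and 233 (47.6%) under saline at 4 h, against 48.5%. They were called higher in 21 cases at 4 h of dexamethasone (0.293% of all genes were), 60 under saline at 8 h (5.27%) and 46 under saline at 4 h (6.68%). Under saline 35 of the 490 were called lower at 8 h, where 8.26% of all genes were. At 4 h of saline 84 were, where 17% of all genes were.

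**Figure D5:**
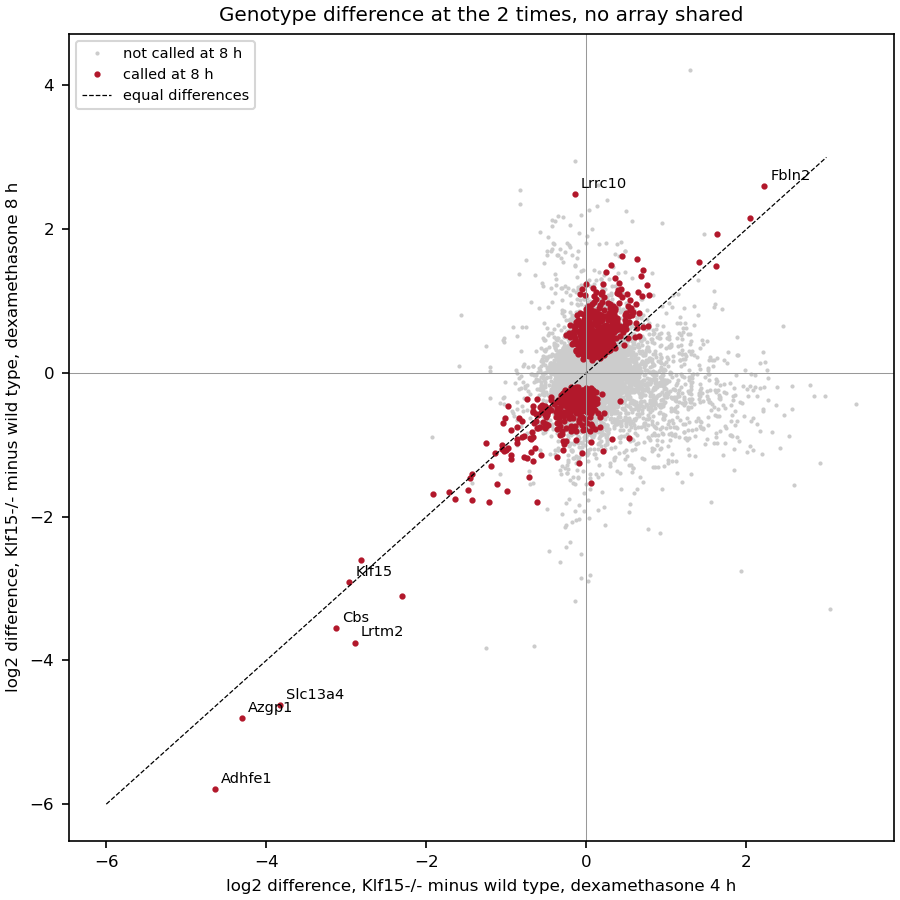
Each point is a gene, with the genotype difference at 4 h of dexamethasone on the x axis and at 8 h on the y axis, both as log2 of Klf15-/- minus wild type. Klf15, at -2.96 and -2.91, lies on the dashed line of equal differences, and Lrrc10, at -0.15 and 2.49, lies off it.

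The genotype difference under dexamethasone was also tested against that under saline at 8 h. It differed for 998 genes (6.5%), 740 above 0 (4.82%) and 258 below 0 (1.68%), and the median over all genes was 0.145. That median was 0.0566 after quantile normalization, which called 502 genes. The Klf15-/- saline arrays at 8 h lay lowest in the ratio of bright to dim probes of the same gene, at -0.21 to -0.116 log2. On wild-type saline arrays at 8 h it was -0.041 to 0.0357. At 8 h of dexamethasone it was 0.014 to 0.286 on Klf15-/- arrays and -0.0836 to 0.154 on wild-type arrays. With that ratio as a covariate 315 genes were called. Of the 806 genes, 278 also passed this test, 215 higher with a value above 0 and 62 lower with a value below 0. Both tests use the same dexamethasone arrays, so this overlap and the shared direction are in part built in. Fah fell more under dexamethasone than under saline, by -1.15 and -0.35 (difference -0.80, adjusted p = 0.000831), and Bckdhb by -1.23 and -0.63 (difference -0.60, adjusted p = 0.000831). Slc38a4 lay at 0.70 under dexamethasone and -0.64 under saline (adjusted p = 0.00157), and Mdh2, a malate dehydrogenase, at 0.36 and -0.29. Nfe2l1, a stress-response factor, lay at 0.19 and -0.38, and Farp1 at 0.04 and -0.48. For Klf15 the values were -2.91 and -3.04 (adjusted p = 0.818).

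Between 8 and 4 h of dexamethasone the genotype difference changed for 1 gene (0.00651%), Bckdhb, at -1.23 and -0.67 (difference -0.56, adjusted p = 0.00327). Its mean at 4 h was 0.38 in Klf15-/- lung and 1.05 in wild-type lung. At an unadjusted p under 0.05 there were 1588 genes. No gene was called with the mean of probes, with the dimmest probe or from the 4 groups alone, so the call of Bckdhb ended there.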

How the data were processed

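RNA of 29 mouse lung samples was labelled with Cy3 and hybridised to Agilent 4x44K mouse arrays (labels' protocols). The deposited intensity values are the processed signals of Agilent Feature Extraction (version 10.6 in the submitters' processing notes, 10.7.3.1 in the headers), background-subtracted by that program. A deposited table of log2 values served as an alternative. Control spots were dropped, spots of a probe averaged, and log2 signals set against each array's 75th percentile. A probe was kept where 3 or more arrays of a group read it well above background (33931 of 41174). Of all probes, 24844 matched 1 gene, 0 several and 16330 none, and the brightest kept probe stood for each of 15350 genes; 432 genes lacked a value on some array. limma 3.58.1 (R 4.3.3) fitted 8 group means over 29 arrays, with Benjamini-Hochberg adjustment. The mean signal is not used here, so normexp (offset 50) ran on the median signal. The fit was tested on simulated data drawn without slide effects. It called 33.3% of true differences of 0.5 on the log2 scale, 80% of those of 1 and 85.9% of those of 2. These sizes were set for 66, 70 and 64 genes in the same order. False calls numbered 7 over 14918 genes. In the measured data the consensus correlation within slides was 0.405, which the simulated data lack. The approximate lower bounds compare the bright group's mean with that of the dim group. Dim signals were first raised, where lower, to the lowest signal that any probe read well above background on that array. A probe's own limit can lie higher, so the true fold can be smaller. The number of arrays limits the precision. The genes and lists were chosen with earlier results of these data known. Named are Klf15, Nr3c1, Aass, Prodh and Mt2, the 15 largest falls and rises among called genes with a proper symbol and no overlap, up to 4 called members per list, called genes within 10 Mb of Klf15 and up to 6 genes per interaction; others were singled out later. Results for some genes are not reported here.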

Additional observations from a re-analysis of the deposited data

Results flagged for a closer look

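Among 114 named genes, 3 had 1 Klf15-/- array at 8 h of dexamethasone far from the other 3 of its group by Dixon's test, and chance alone gives about 1 such gene in 20. All were array 61, with Slc13a4 at -3.42 (nearest -4.63), Fam107a at 3.43 (nearest 2.98) and Hspb8 at 3.53 (nearest 3.15).

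The genotype difference at 8 h was tested under dexamethasone against saline, and 40 named genes differed at an adjusted p under 0.05, 27 above 0 and 13 below 0. Over all genes 6.5% differed, 4.82% above 0 and 1.68% below 0. Most named genes were picked by their difference at 8 h of dexamethasone, which enters this test, and some by this test itself. Their count is therefore raised by the choice. Values are the log2 difference under dexamethasone minus that under saline. Below 0 were Dbt (-1.44), Gstm7 (-1.12), Lrtm2 (-1.04), Cbs (-0.93), Mccc2 (-0.81), Fah (-0.80), Sfxn2 (-0.76), Klf12 (-0.65), Kdr (-0.64), Bckdhb (-0.60), Aldh4a1 (-0.54), Gstz1 (-0.44) and Cdo1 (-0.36). Above 0 were Ntsr2 (1.94), Gdf2 (1.66), Mrap (1.63), Strip2 (1.52), Ccl8 (1.50), Kcnv2 (1.42), Orm2 (1.33), Slc38a4 (1.33), Gadd45g (1.23), Cyp7b1 (0.99), Fasn (0.86), Glul (0.77), Magi1 (0.73), Mdh2 (0.65), and the rest, Gpt2 (0.59), Myh11 (0.58), Nfe2l1 (0.58), Tgm2 (0.58), Gnmt (0.57), Pdpn (0.56), Bola3 (0.55), Slc7a7 (0.54), Farp1 (0.52), Hspb8 (0.50), Rpn1 (0.44), Lmod1 (0.42) and Copg1 (0.34). These values rest in part on the Klf15-/- saline arrays at 8 h, whose bright to dim probe ratio was the lowest of the groups compared. The part of that ratio was not tested gene by gene. Kcnv2 was well above background on the 4 Klf15-/- dexamethasone arrays and on 0 arrays of the other 3 groups, so its value is not a measured size.

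For Bckdhb the genotype difference under dexamethasone also differed between 8 and 4 h, by -0.56. That call ended with the mean of probes, with the dimmest probe and in the fit of the compared groups alone.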

How the results depend on the processing

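No paired analysis was possible because the groups share no array number. The 806 calls (490 higher, 316 lower) became 405 (173 higher) with slides as a fixed block, 1212 (784 higher) with array weights, and 50 (14 higher, 36 lower) from the 7 arrays alone; the deposited table gave 318 higher. Leaving out 1 array gave 312 to 1222 calls, 169 to 792 higher and 143 to 430 lower. For the difference between dexamethasone and saline, 998 calls became 502 with quantile normalization, 203 with normexp, 187 in the deposited table, 651 with the mean of probes, 514 with slides as a fixed block, 2439 with array weights, 315 with the bright to dim ratio as a covariate (added after seeing the data) and 489 from the 4 groups alone, and 341 to 1205 without 1 array. For 8 against 4 h, the 1 call became 3 (quantile normalization, slides as a fixed block), 5 (median scaling), 2 (normexp, deposited table), 4 (well above background on all arrays), 0 (mean of probes, dimmest probe, the 4 groups alone), 10 (slides as a random block), 7 (trend and robust variance), 8 (covariate) and 1 to 8 without 1 array. Klf15 stayed between -3.05 and -2.36 and was called in all 22 settings. With the dimmest probe Copg1 turned to -0.03 and Adamts9 to -0.11. Farp1, not called, turned to -0.05 under quantile normalization, normexp, the deposited table and the mean of probes, and to -0.14 with the dimmest probe. Of 112 called genes named, 22 stayed called under every setting run for them (22, or 21 for Nat8f5 and Slc13a4); 85 lost the call in the fit of the 7 arrays alone, which has fewer arrays to estimate the spread, 46 with slides as a fixed block and 53 without some single array. For the other changes the cause was not tested. Signal near background limits Adhfe1, Nat8f5, Cxcl5, Cck, Kcnv2 and Dhtkd1.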
